A study of Mus musculus with 8 samples.

Results

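The carbonic anhydrases are the enzymes that turn carbon dioxide and water into bicarbonate and a proton, and back. The mouse genes carry the symbol Car and a number, and are unrelated to the nuclear receptor abbreviated CAR. Here 10 of them (Car1, Car2, Car3, Car4, Car5a, Car5b, Car8, Car9, Car13 and Car14) were followed among 19938 genes measured in fasted mouse liver. Members were taken by symbol, from probe sets that name exactly 1 gene, and where a gene has several the probe set was chosen by its mean signal over the 8 arrays, the highest being kept. Each member had 1 such probe set, so that mean decided nothing. The family was taken up with the difference of Car8 already known, and that difference is given as a description.

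Livers came from C57BL6 mice killed after 17 h without food, and the 8 samples were each read on 1 Affymetrix GeneChip (Mouse Gene 1.0 ST), a 1-colour array whose probes are spread along a transcript. Mice of the hydrogen water group (4 arrays) started on water with dissolved hydrogen gas at 7 weeks of age and drank it for 4 weeks. The control group (4 arrays) shared the strain and the fast. Groups were taken from the sample titles, because the treatment text, with its start at 7 weeks of age and its hydrogen water, is the same for all 8 samples, controls included. The titles and descriptions name hydrogen for 4 samples only, and what the controls drank is not stated apart from that text. The labels give no sex and no hydrogen concentration, and leave unsaid whether every array stands for its own animal. If not, p-values cover only the spread between these samples.

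Signals are on a log2 scale, so a difference of 1 is a doubling. The median signal of an array lay between 5.27 and 5.37, and arrays correlated with each other over all genes at 0.988 to 0.995. Hepatocyte identity was plain on every array: the 8 of 8 measured hepatocyte markers summed to linear signals of 120500 to 122754 in controls and 118764 to 123071 with hydrogen water, and albumin (Alb) stood at 14.38 ± 0.07 (SD, n = 4) and 14.33 ± 0.05 (SD, n = 4). With 4 arrays a group, their number sets the precision. In whole liver, fewer cells of a type and less RNA per cell cannot be told apart.

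The family divides by where its proteins sit. Car1, Car2, Car3, Car13 and Car8 are cytosolic: Car2 is among the fastest enzymes known, Car3 is a slow form abundant in fat, slow muscle and rodent liver, Car1 is best known from red blood cells, and Car8 has lost catalysis and is known as a binding partner of an inositol trisphosphate receptor in the brain. Car5a and Car5b work inside mitochondria, where their bicarbonate feeds carbamoyl phosphate synthetase and pyruvate carboxylase, the entry steps of the urea cycle and of gluconeogenesis. Car4 is tied to the outer cell surface by a lipid anchor, whereas Car9 and Car14 cross the membrane with the catalytic domain outside. Car9 is a textbook target of the hypoxia-inducible factor HIF. Car13, Car1, Car3 and Car2 are neighbours in the RefSeq annotation of GRCm38.p6, with 3 other annotated genes between them, of which 0 code for a protein.

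Promoter sequences were at hand for 5 of the 10 members. Those of 3 surface or mitochondrial members are printed 5′ to 3′ from RefSeq (GRCm38.p6), each with 250 bases before and 50 after an annotated start. Car9 is shown because its 2 groups lay apart, and Car14 and Car5a because they, like Car3, were lowest of their group on both control 2 and hydrogen water 2. Capitals mark matches, on either strand, to ACGTG, the core letters that HIF binds, to TGTTTAC, a core of the FOXA factors of liver, or to AGGTCA, the half-site of many nuclear receptors. The motifs were chosen with these sequences in view.
Car9, chr4:43506776-43507075, plus strand: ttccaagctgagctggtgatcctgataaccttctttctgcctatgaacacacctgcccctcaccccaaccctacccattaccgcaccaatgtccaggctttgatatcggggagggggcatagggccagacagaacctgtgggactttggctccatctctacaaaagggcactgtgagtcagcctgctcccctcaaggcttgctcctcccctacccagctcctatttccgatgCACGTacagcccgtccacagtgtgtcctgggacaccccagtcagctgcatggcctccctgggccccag
Car14, chr3:95904636-95904935, minus strand: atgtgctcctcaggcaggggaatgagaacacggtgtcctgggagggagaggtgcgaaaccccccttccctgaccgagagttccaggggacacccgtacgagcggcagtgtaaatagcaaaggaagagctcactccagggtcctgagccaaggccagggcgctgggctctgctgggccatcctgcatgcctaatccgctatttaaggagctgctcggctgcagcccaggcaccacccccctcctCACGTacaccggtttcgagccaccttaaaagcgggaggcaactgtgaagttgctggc
Car5a, chr8:121944863-121945162, minus strand: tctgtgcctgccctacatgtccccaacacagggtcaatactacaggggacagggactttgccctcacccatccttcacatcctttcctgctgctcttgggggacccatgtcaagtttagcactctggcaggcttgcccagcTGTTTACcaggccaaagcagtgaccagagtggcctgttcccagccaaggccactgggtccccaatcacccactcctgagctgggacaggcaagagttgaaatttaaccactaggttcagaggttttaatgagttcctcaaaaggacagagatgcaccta

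The ACGTG letters began 18 bases before the start in the Car9 window and 7 bases before it in the Car14 window, both read on the opposite strand. The Car4 window, not printed, also held 1 match, and those of Car5a and Car5b held 0. Of 32851 promoter windows of 300 bases, 19.6% held ACGTG. The TGTTTAC match of Car5a began 109 bases before the start, and 3.65% of all windows held those letters. AGGTCA occurred in 0 of the 5 member windows and in 16.3% of all windows. A match describes letters and is no evidence of binding in these livers.

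Of the 10 members, 7 had a mean signal above the median of all genes, which was 5.87: Car3 (12.42), Car8 (9.76), Car5a (9.27), Car14 (9.02), Car1 (7.63), Car2 (6.87) and Car5b (6.37). Car9 (4.71), Car4 (4.67) and Car13 (4.11) lay below it. These means describe the brightness of each probe set. Probe sets differ in how well they bind, so the order is not one of transcript amounts.

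The comparison of hydrogen water with control asked whether the level of any member differed between the groups. None passed limma's test over all genes: 0 of the 10 had a Benjamini-Hochberg adjusted p under 0.05, as had 0 (0%) of the 19938 genes. The adjusted p of the members lay between 0.617 and 0.987. The mean was lower with hydrogen water in 9 of the 10, against 51.3% of all genes, and the median difference was -0.37 against -0.0047 over all genes. With quantile normalization or with each array centred on its median, 9 of 10 were again lower, and the median over all genes was then -0.04. At an unadjusted p under 0.05 stood 3 members, all lower, against 3.57% of all genes lower and 7.17% in either direction. Car8, whose difference was known when the family was taken up, is among the 3 and among the 9. These counts are therefore a description and no test of the family. The member count was 5 without control 2 or without control 4, 2 without hydrogen water 3, and 6 with the replicate number as a block. The split over all genes depended on scaling: 718 genes were higher and 711 lower as deposited, 588 and 1179 after quantile normalization, and 421 and 1177 after median centring.

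**Figure D1:**
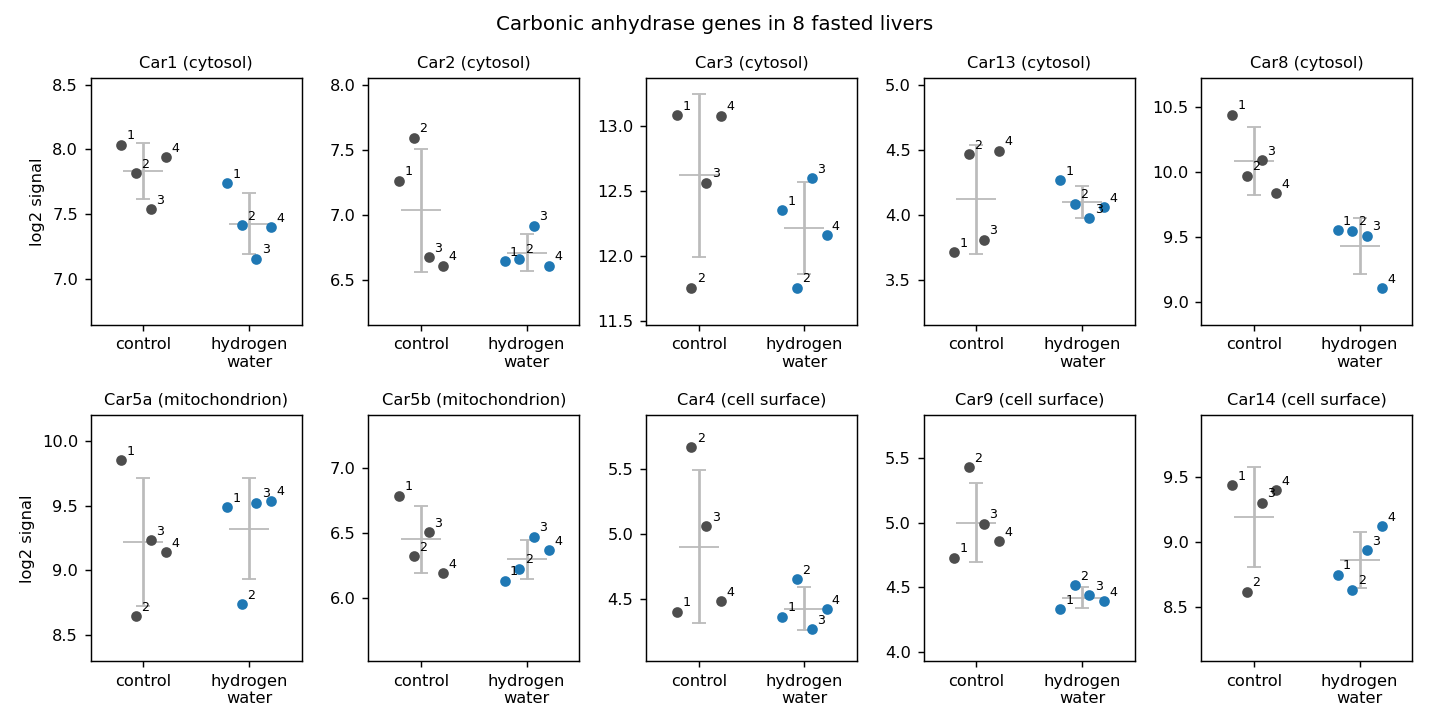
Log2 signal of the 10 carbonic anhydrase genes, 1 panel per gene with the protein's compartment, in control (grey) and hydrogen water (blue) livers. Points are arrays with their replicate number, the horizontal bars and whiskers are mean and SD (n = 4), and all panels span the same log2 range; the groups lie wholly apart for Car8 and Car9.

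Among the cytosolic members, Car8 showed the widest gap between the groups. Its signal (transcript cluster 10511429) was 10.44, 9.97, 10.09 and 9.84 on controls 1 to 4, and 9.55, 9.55, 9.51 and 9.10 on hydrogen water 1 to 4. Every hydrogen water array lay below every control, a pattern that 2.01% of all genes showed in that direction and 3.76% in either. The difference was -0.66 (SE 0.15), a ratio of 0.634 (95% interval 0.506 to 0.793), with a limma adjusted p of 0.617. The lowest value, on hydrogen water 4, stood well below the other 3 of its group. Without that array the difference was -0.55, and without control 1 it was -0.54.

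Car1, whose probe set also reads any blood held in the organ, stood at 8.04, 7.82, 7.54 and 7.94 in controls and at 7.74, 7.42, 7.16 and 7.40 with hydrogen water. The groups overlapped through control 3 and hydrogen water 1. The difference was -0.41 (SE 0.14; ratio 0.755, 95% interval 0.608 to 0.937; limma adjusted p = 0.655). Beside it, 0 of 5 measured erythroid markers had an unadjusted p under 0.05, and their median difference was 0.02. Of these 5 markers, only 1 lay above the median level of all genes. Alas2, the haem synthesis enzyme of red cell precursors, was the brightest of them, at 9.78 ± 0.07 (SD, n = 4) in controls and 9.81 ± 0.26 (SD, n = 4) with hydrogen water. The summed linear signal of these markers ran from 957 to 1081 in controls and from 838 to 1248 with hydrogen water. The haemoglobin genes on the list were not analysed here, and the part of blood in the Car1 values was not tested.

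Car3 was the brightest member and the most variable. Its signal was 13.09, 11.75, 12.57 and 13.08 in controls and 12.35, 11.76, 12.60 and 12.16 with hydrogen water. Controls 1 and 4 were the highest of all 8 arrays, but control 2 was the lowest, so the groups overlapped fully. Controls alone spanned a 2.52-fold range of linear signal. The within-group SD of Car3 (0.51) exceeded that of 98.8% of all genes. The difference was -0.40 (SE 0.27; 95% interval -0.996 to 0.186; limma adjusted p = 0.802), and it ran from -0.25 without control 1 to -0.69 without control 2.

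Car3 is a marker of fat and slow muscle as well as a liver gene, so adipocyte and skeletal muscle markers were read beside it. The muscle list was not restricted to slow fibres. Of 6 measured adipocyte markers, 4 were lower and 1, Plin1, had an unadjusted p under 0.05. Only 1 of the 6 lay above the median level of all genes. The summed linear signal of the 6 was 252 to 395 in controls and 210 to 339 with hydrogen water. Fabp4, the brightest of them, Retn and Adipoq were highest on control 2 (7.95, 5.79 and 3.61), where Cidea was lowest (3.97), whereas Plin1 was highest on control 3 (5.70) and Lep on hydrogen water 3 (4.55). The adipocyte hormone gene Adipoq was dim on every array (3.15 to 3.61). The 11 skeletal muscle markers summed to 355 to 415 in controls and 374 to 418 with hydrogen water, with 0 at an unadjusted p under 0.05. Only 2 of the 11 lay above the median level of all genes. The part of fat or muscle in the Car3 values was not tested.

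Car3 is also known as a gene that male rat livers express above female ones, and 9 of 10 male-biased genes were lower with hydrogen water, by a median of -0.26, with 0 passing the adjusted threshold. Hsd3b5, a steroid enzyme of that list, stood at 7.76 ± 0.61 (SD, n = 4) in controls and 6.66 ± 0.67 (SD, n = 4) with hydrogen water. Control 2 carried the highest level of this list, with a median of 0.65 around each gene's mean, and the lowest of Car3. Without control 2 the list's median difference was -0.07, and the difference of Car3 was -0.69. The labels give no sex, and the part of male-biased expression in the Car3 values was not tested.

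Car2 was high on 2 arrays, both controls. It stood at 7.26, 7.60, 6.67 and 6.61 in controls and at 6.64, 6.66, 6.92 and 6.61 with hydrogen water. The other 6 arrays lay within 0.31 of each other. The difference was -0.33 (SE 0.20; limma adjusted p = 0.777), and -0.14 without control 2. In liver Car2 is known from bile duct cells as well as hepatocytes, and bile duct markers were read beside it. Krt19 (6.78), Krt7 (5.84) and Cftr (3.82) were highest on control 2, whereas Sox9 was lowest there (7.01), Epcam was highest on control 4 (5.57) and Cldn4 on control 1 (5.68). Over the list, 5 of 6 measured cholangiocyte markers were lower with hydrogen water, and 0 had an unadjusted p under 0.05. Their summed linear signal was 299 to 405 in controls and 298 to 396 with hydrogen water. Only 1 of the 6 lay above the median level of all genes. The part of bile duct cells in the Car2 values was not tested.

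Car13, the dimmest member, ranged from 3.71 to 4.50 in controls and from 3.98 to 4.27 with hydrogen water. Its difference of -0.02 (95% interval -0.41 to 0.36) took the other sign without control 2, control 4 or hydrogen water 3.

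Both mitochondrial members had groups that overlapped. Car5a, the liver form, stood at 9.85, 8.65, 9.23 and 9.14 in controls and at 9.49, 8.74, 9.52 and 9.54 with hydrogen water. The number 2 array was the lowest of each group. Car5a was the single member with a higher mean under hydrogen water, by 0.10 (SE 0.24; 95% interval -0.42 to 0.63; limma adjusted p = 0.954), and without control 2 it was lower, at -0.086. Car5b, the widely expressed form, ranged from 6.19 to 6.79 in controls and from 6.13 to 6.47 with hydrogen water, a difference of -0.15 (95% interval -0.45 to 0.15). Intervals of this width leave room for a change of Car5a by 1.54-fold upward or to 0.749 of the control level.

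Genes that use the bicarbonate made in mitochondria and cytosol were read from fixed lists. Of 9 enzymes that consume bicarbonate, 5 were higher and 4 lower, with a median difference of 0.03 and 0 past the adjusted threshold. Cps1, the mitochondrial carbamoyl phosphate synthetase, stood at 13.92 ± 0.02 (SD, n = 4) in controls and 13.96 ± 0.16 (SD, n = 4) with hydrogen water, and Pcx, pyruvate carboxylase, at 12.04 ± 0.19 (SD, n = 4) and 12.09 ± 0.33 (SD, n = 4). The largest difference of the list was that of Acacb, the acetyl-CoA carboxylase that restrains fatty acid oxidation: 0.48 (SE 0.14; limma adjusted p = 0.631), with the groups apart. Of 8 measured genes of the urea cycle and ammonia handling, 6 were higher and 2 lower, by a median of 0.10. Slc25a15, the mitochondrial ornithine carrier, differed by 0.30 (SE 0.10), Glul, glutamine synthetase, by 0.33 (SE 0.14) and Otc, ornithine transcarbamylase, by -0.25 (SE 0.11), with limma adjusted p values of 0.640, 0.687 and 0.687.

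Of the surface members, Car9 had groups that lay apart. Its signal (transcript cluster 10504337) was 4.73, 5.43, 4.99 and 4.85 on controls 1 to 4, and 4.33, 4.52, 4.44 and 4.39 on hydrogen water 1 to 4. All 4 hydrogen water values fell within 0.19 of each other, below the lowest control. The difference was -0.58 (SE 0.14), a ratio of 0.669 (95% interval 0.541 to 0.829), with a limma adjusted p of 0.617. Control 2 was the highest, and without it the difference was -0.44. The probe set was dim throughout, below the median of all genes, and no detection call was at hand to say whether it stood above background.

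Other HIF targets were read beside Car9. Of 17 measured, 11 were lower and 6 higher with hydrogen water, by a median of -0.07. Groups lay apart in 0 of the 17 HIF targets, against 3.76% of all genes. The part of HIF in the Car9 values was not tested. Egln3, the oxygen-sensing prolyl hydroxylase that HIF induces, had the smallest unadjusted p, at 8.76 ± 0.23 (SD, n = 4) in controls and 8.32 ± 0.30 (SD, n = 4) with hydrogen water (difference -0.44, SE 0.16, limma adjusted p = 0.674). Without control 2 the list's median was 0.02. Car12, another surface carbonic anhydrase, stood at 4.10 ± 0.06 (SD, n = 4) and 4.17 ± 0.15 (SD, n = 4).

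Car4 was high on 2 controls only. It stood at 4.40, 5.67, 5.06 and 4.48 in controls and at 4.36, 4.65, 4.26 and 4.42 with hydrogen water. The difference of -0.48 (SE 0.23; 95% interval -0.99 to 0.03; limma adjusted p = 0.715) was -0.22 without control 2. Car14, found on the surface of hepatocytes, stood at 9.44, 8.62, 9.30 and 9.40 in controls and at 8.75, 8.63, 8.94 and 9.12 with hydrogen water. Of the controls, 3 lay above all hydrogen water arrays and control 2 lay below them. Its difference was -0.33 (SE 0.18; 95% interval -0.72 to 0.06; limma adjusted p = 0.743), and -0.52 without control 2, when the groups lay apart.

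**Figure D2:**
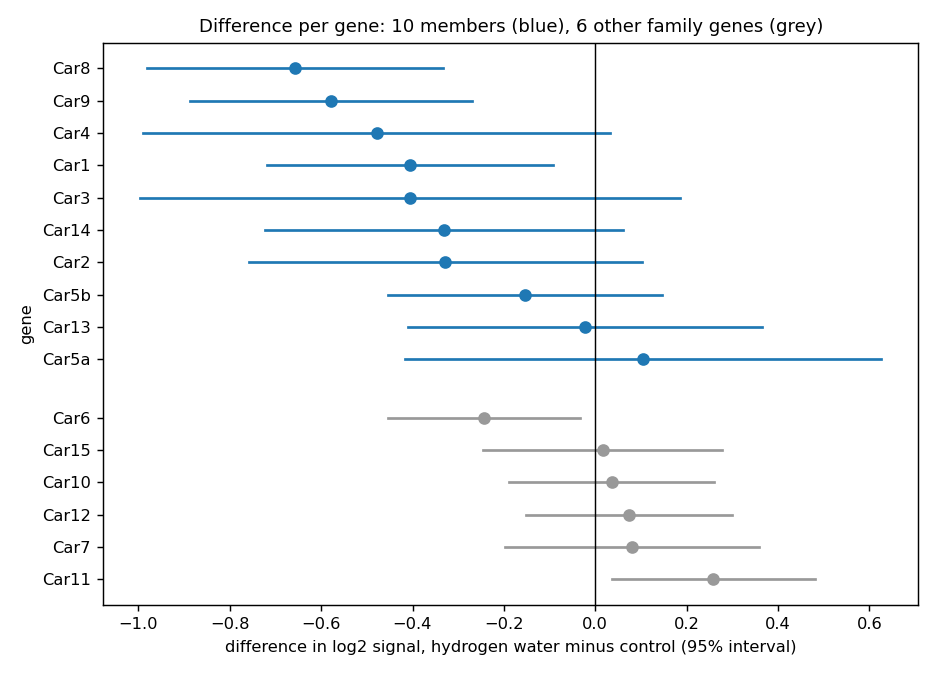
Difference in log2 signal, hydrogen water minus control, with its 95% interval from limma, for the 10 members (blue) and the 6 other carbonic anhydrase genes on the array (grey). The intervals of Car8, Car9 and Car1 lie below 0 before adjustment for the number of genes, and 5 of the 6 other genes have a mean difference above 0.

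Lower means were not seen in every carbonic anhydrase gene on the array. Of the 6 others, Car6, Car7, Car10, Car11, Car12 and Car15, 5 were higher and 1 was lower, with a median difference of 0.06 that became -0.01 after quantile normalization. All 6 lay below the median level. Car7, Car10, Car12 and Car15 differed by only 0.02 to 0.08, each less than its SE (0.10 to 0.13), so their signs are not settled. Car11, a secreted form without catalysis, differed by 0.26 (SE 0.10) and Car6, the salivary form, by -0.24 (SE 0.10), both with groups apart and a limma adjusted p of 0.687. Over the 16 genes together, 10 were lower and the median difference was -0.20.

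Members differed in how much they varied and in which array stood at the extreme of its group. Arrays were lowest of their group for 1 to 3 of the 10 members and highest for 0 to 6. Control 2 and hydrogen water 2 were lowest for 3 each, as were control 1, control 4 and hydrogen water 3. Control 2 was the lowest control for Car3, Car5a and Car14 and the highest for Car2, Car4 and Car9. Hydrogen water 2 was likewise the lowest of its group for Car3, Car5a and Car14 and the highest for Car4 and Car9. Control 1 was the highest control for 6 of the 10 members. The within-group SD of Car5a (0.44) and Car4 (0.43) exceeded that of 98.0% and 97.8% of all genes, against 77.3% for Car8 and 71.3% for Car9. An SD of 0.4 or more was reached by 2.92% of all genes.

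**Figure D3:**
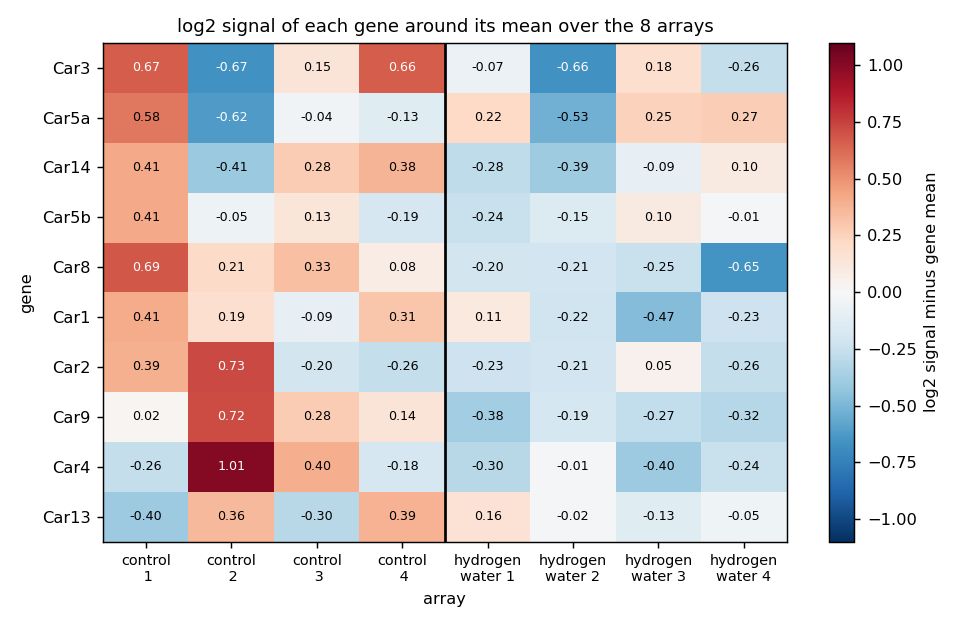
Log2 signal of each member minus its mean over the 8 arrays, with controls left and hydrogen water right of the line (red above, blue below the gene's mean). Car3, Car5a and Car14 are all low on control 2 (-0.67, -0.62 and -0.41) and hydrogen water 2 (-0.66, -0.53 and -0.39), while Car8 and Car9 follow the groups.

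Over the 45 pairs of members, 0 correlations across the 8 arrays passed an exact permutation test after adjustment (lowest adjusted p = 0.186), and 4 had an unadjusted p under 0.05. These correlations include the difference between the groups. With each group centred on its mean, r was 0.84 for Car3 and Car14 and 0.95 for Car4 and Car9. Centred r was -0.96 for Car3 and Car4 (uncentred -0.51), -0.87 for Car9 and Car14 (0.02) and 0.22 for Car1 and Car8 (0.69). Single arrays weighed heavily here. Uncentred r of Car3 and Car4 was -0.01 without control 2 and hydrogen water 2. That of Car9 and Car14 was 0.75 without controls 2 and 3. Centred r was not recomputed without these arrays. Centred values carry no test. Car3 and Car14 gave Pearson's r = 0.87 (exact permutation p = 0.00826, adjusted p = 0.186) and Spearman's rho = 0.88 (exact permutation p = 0.00724, adjusted p = 0.163). Without control 2 and hydrogen water 2, the arrays farthest from the median of Car3, r was 0.70. Within the groups it was 0.97 in controls and 0.45 with hydrogen water, each over 4 arrays and so a description.

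Car4 and Car9 gave r = 0.89 (exact permutation p = 0.00657, adjusted p = 0.186) and rho = 0.79 (exact permutation p = 0.0279, adjusted p = 0.314). Without controls 2 and 3 r was 0.28, so the size of r over the 8 arrays depended on those arrays. Within the groups r was 0.97 in controls and 0.63 with hydrogen water, each over 4 arrays and so a description. Car13 and Car5b ran opposite ways, with r = -0.81 (exact permutation p = 0.0130, adjusted p = 0.195) and rho = -0.88 (exact permutation p = 0.00724, adjusted p = 0.163). For this pair r was -0.95 without controls 2 and 4. Car5a and Car4 gave r = -0.72 (exact permutation p = 0.0412, adjusted p = 0.433) and rho = -0.74 (exact permutation p = 0.0458, adjusted p = 0.413), and r was -0.52 without control 2 and hydrogen water 2. Car3 and Car5a gave r = 0.68 (exact permutation p = 0.0647, adjusted p = 0.433) and rho = 0.60 (exact permutation p = 0.132, adjusted p = 0.649), which rests on the number 2 arrays, since r was 0.00050 without them.

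The genes whose signals were most like that of Car8 were sought among 9968 genes above the median level, by Pearson's r over the 8 arrays. As the highest of so many, these values carry no test. They were the membrane endopeptidase gene Mme (r = 0.97, rho = 0.88), the mitochondrial ribosome gene Mrpl58 (r = 0.97, rho = 1.00), the actin-nucleating complex gene Arpc4 (r = 0.96, rho = 1.00), Ociad2 (r = 0.96, rho = 0.90) and Afm, for the plasma protein afamin (r = 0.95, rho = 0.98). Their own differences ran from -0.46 (Mme) to -0.13 (Arpc4). This r includes the difference between the groups. Since the groups of Car8 lay apart, a lower mean in these genes follows from how they were chosen. With each group centred on its mean, r ran from 0.83 (Afm) to 0.98 (Ociad2).

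Receptors and transporters that work with the family were read the same way. The inositol trisphosphate receptor Itpr1 was not analysed here; Itpr2 and Itpr3 differed by 0.13 (SE 0.11) and -0.06 (SE 0.10). Of 15 measured bicarbonate transporters, 10 were higher and 5 lower, with a median of 0.03 (-0.02 after quantile normalization) and 0 past the adjusted threshold. The hepatocyte sodium bicarbonate cotransporter Slc4a4 stood at 10.75 ± 0.06 (SD, n = 4) in controls and 10.88 ± 0.20 (SD, n = 4) with hydrogen water. The anion exchangers Slc4a1, of red cells, and Slc4a2, of the bile canaliculus and ducts, differed by 0.11 (SE 0.17) and -0.06 (SE 0.12). Of 9 measured proton and lactate transporter genes, 8 were lower and 1 higher, by a median of -0.13, again with 0 past the threshold.

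Markers of other cells in the liver were also compared. All 11 Kupffer cell markers and all 8 sinusoidal endothelial markers had higher means with hydrogen water, by medians of 0.32 and 0.33, with 0 past the adjusted threshold. Of each list, 3 had an unadjusted p under 0.05, against 7.17% of all genes in either direction. Groups lay apart in 1 Kupffer and 3 endothelial markers, against 3.76% of all genes. The summed linear signal of the Kupffer list was 1123 to 1882 in controls and 1388 to 2376 with hydrogen water, and that of the endothelial list was 2299 to 3352 and 2631 to 4162. Hepatocyte markers had a median difference of 0.0011, pericentral markers -0.06 over 10 genes, periportal markers 0.08 over 7, stellate cell markers -0.05 over 9 and pancreatic acinar markers -0.08 over 5. The part of cell composition in the members' differences was not tested.

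**Figure D4:**
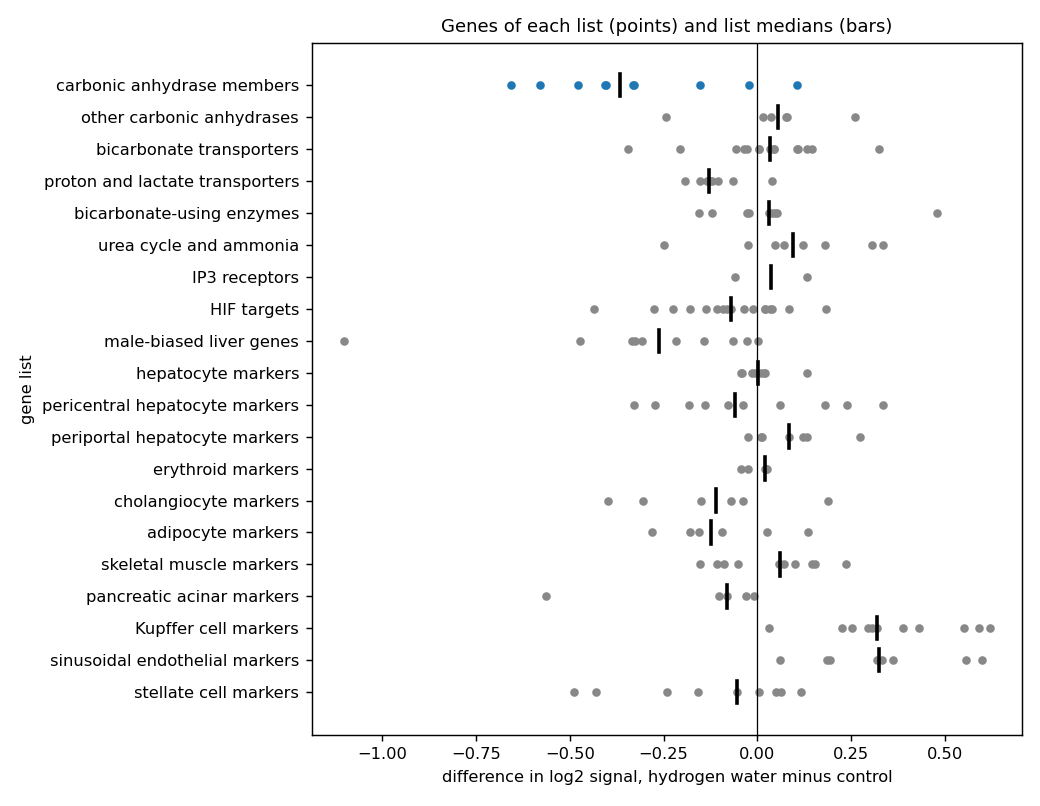
Difference in log2 signal, hydrogen water minus control, of every measured gene (points) of the carbonic anhydrase members (blue) and of the 19 fixed lists (grey), with black bars at list medians. The members' median lies at -0.37, male-biased liver genes at -0.26, and Kupffer cell and sinusoidal endothelial markers at 0.32 and 0.33.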

How the data were processed

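The authors deposited log2 signals as a single table with a row for each probe set. Per the submitters' processing notes they used Affymetrix Expression Console. For its version, background correction, normalization, summary method and genome build, the sources used here give nothing. The log2 scale was read from the values. Of 35556 probe sets, 21789 named 1 gene, 1621 several and 12146 none here. Symbols came from the platform annotation, updated by Entrez identifier through RefSeq (GRCm38.p6, names only; 19856 of 19938 genes matched). Each gene was its probe set with the highest mean, with no filter on level.

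The test was limma (version 3.58.1, R 4.3.3) with lmFit and eBayes (2 groups, no covariate, two-sided, Benjamini-Hochberg over 19938 genes, threshold 0.05). Correlations used a two-sided exact permutation test over 40320 pairings. The members, the 19 lists (159 of 180 genes measured) and the named genes were chosen with earlier results of these data known. Outside the members, the rule named the 3 list genes with the smallest unadjusted p, each marker list's brightest gene, 7 genes fixed by name and the 5 genes most like Car8; some are not printed. Lists are described by counts and medians. Linear sums are of 2 raised to the log2 signal. Tested on simulated data (hydrogen water against control, 19938 genes, 200 changed), limma found 36.4% of true log2 differences of 0.5. Of those of 1 it found 88%, and 6.13% of calls were false. The simulated noise was normal and independent between genes, and the changed genes were drawn at random. These shares are averages and do not hold for highly variable members such as Car3, Car5a and Car4. The alternatives were a filter on dim genes, other handling of probe sets, quantile normalization, median centring, a trended robust variance, array weights, a replicate block and arrays left out. Leaving out control 2 with hydrogen water 2 was added after seeing the data. The numbers in the sample titles were not taken as pairs in the main test. Same-numbered deviations from the group means correlated at -0.16 to 0.06, which cannot show whether the samples were paired. Figures used matplotlib 3.10.9 (Python 3.11.15).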

Additional observations from a re-analysis of the deposited data

Results flagged for a closer look

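In 4 of the 20 groups of 4 values (10 members, 2 groups each), 1 array stood apart from the other 3 by a gap of more than 0.829 of the group's range, the 95% limit of Dixon's test. Chance sets apart about 1 group in 20, and among other named genes it was 9 of 138 groups. Car8 on hydrogen water 4 was 9.10 against 9.51 to 9.55 on the others of its group. Car5a on hydrogen water 2 was 8.74 against 9.49 to 9.54. Car14 on control 2 was 8.62 against 9.30 to 9.44. Car2 on hydrogen water 3 was 6.92 against 6.61 to 6.66.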

How the results depend on the processing

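Over 18 alternatives, Car1, Car2, Car3, Car5b, Car8 and Car14 kept a lower mean with hydrogen water in all 18, and Car4 and Car9 in the 17 that could be computed for them, the filter on dim genes having removed them and Car13. With single arrays left out Car13 ran from -0.16 to 0.10 and Car5a from -0.086 to 0.31, taking the other sign in some, and Car13 was 0.10 without control 2 and hydrogen water 2. No member passed the adjusted threshold under any of these alternatives; the lowest adjusted p was 0.261, for Car8 with array weights. The count of genes past that threshold was 0, and 0 to 1 with single arrays left out (Sucnr1 without control 2, Aqp8 without control 3). It was 3 (Aqp8, Mir297b and Usp17ld) without control 3 and hydrogen water 4; these genes were named after their values were seen. The 1429 genes at an unadjusted p under 0.05 became 786 with the filter on dim genes, which tests fewer genes. The 750 genes with groups apart became 419 with that filter, 1135 to 1881 with single arrays left out, 2476 without control 3 and hydrogen water 4 and 2573 without control 2 and hydrogen water 2, since smaller groups separate more easily. With the replicate number as a block, 0 genes passed, 1313 had an unadjusted p under 0.05 and 0 member pairs passed; arrays that correlated best with their own number were 0 of 8. With the block a pair has only 4 differences, so its exact test leaves almost no room to pass after adjustment over 45 pairs. Of 341 list medians recomputed, 335 moved by less than the spread between arrays. That spread is a wide measure, at 0.24 for male-biased genes and 0.27 for sinusoidal endothelial markers. A list median could shift by nearly as much and still be counted among the 335. Dim probe sets, Car4, Car9 and Car13 among them, are limited by an unknown background.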
